A study of Mus musculus with 7 samples.

Results

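The genes described here are 9 that write, maintain, erase or read cytosine methylation, taken by name (Dnmt1, Dnmt3a, Dnmt3b, Uhrf1, Tet1, Tet2, Tet3, Mbd2 and Tdg) from the 21899 genes listed for each library, by a rule that names genes and no values. They were measured by RNA-seq in pancreatic islets of F2 male C57BL/6J mice, the grandsons of dams that had received vehicle (corn oil with benzyl benzoate, control-F2) or the androgen dihydrotestosterone in that vehicle in late pregnancy (prenatal androgen exposure, AE-F2, labelled hyperandrogenism), with F1 males bred to unrelated wild-type females. The study asked how prenatal androgen exposure affects the metabolism of offspring. The labels give 3 control-F2 and 4 AE-F2 samples, of which control-F2 replicate 1 and AE-F2 replicate 4 were analysed and the other 5 were not analysed here. The age of the animals behind the libraries and whether islets were pooled are not given in the sources used here. Islets were freed with collagenase, purified on a gradient, picked by hand and kept in culture medium, so that a library can hold every cell type that came with the islets.

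In mammals a methyl group is placed on the cytosine of CpG dinucleotides by Dnmt3a and Dnmt3b, and after each round of replication it is copied to the new strand by Dnmt1, which Uhrf1 guides to hemimethylated sites. The TET enzymes oxidise the methyl group, Tdg cuts out the oxidised bases for repair, and proteins such as Mbd2 bind methylated CpG and bring in the NuRD repressor. Most islet endocrine cells of an adult divide rarely, whereas maintenance methylation is tied to S phase. In islets, DNA methylation is known for holding silent the genes that endocrine cells do not use.

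The libraries held 16285888 counts (control-F2) and 21278513 counts (AE-F2), a depth ratio of 1.31. With 1 library per group there is no replicate error and no test. Each log2 ratio of a gene below is AE-F2 over control-F2 after TMM scaling, with a pseudocount of 0.5. It stands with a 95% Clopper-Pearson interval. All intervals here cover counting error only and compare these libraries, not the conditions. Islet identity was clear, since all 8 beta cell markers had at least 3541 counts in each library, and their sums were 201851 and 201797 CPM (counts scaled to a library total of 1000000). The insulin genes carry those sums, and 6 of the 8 markers had intervals below equality, with a median log2 ratio of -0.09. The summed levels of other lists differed to unequal extents. The 12 markers of cycling cells summed to 42.4 CPM in control-F2 and 71.3 CPM in AE-F2, 8 B cell markers to 11.7 and 43.8 CPM (2 of them at 0 in control-F2, where Cd79a gave 178 of the 190 counts and each of the others at most 3), 7 T cell markers to 1.11 and 8.08 CPM (3 at 0 in control-F2), and 7 mesenchymal markers to 69.7 and 119 CPM. The 6 alpha cell markers summed to 17559 and 23677 CPM, mostly Gcg, and all 6 had ratios above 0. Of the acinar markers, 7 were tested, 6 had intervals below equality, and the median log2 ratio was -0.44, with sums over all 8 listed of 1996 and 1867 CPM. The exception was Amy2a5, the most abundant of them (7774 and 15634 counts, log2 ratio 0.63, 0.59 to 0.67), an amylase gene with near-identical copies. The 6 macrophage markers summed to 70.2 and 86.3 CPM, the 3 delta cell markers to 2991 and 2973 CPM and the 6 endothelial markers to 630 and 609 CPM. In bulk islets, fewer cells of a type and less RNA per cell cannot be told apart.

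Across the 9 genes, Uhrf1 stood apart with a higher count in AE-F2, and the other 8 lay between 0.807 and 1.12 times their control-F2 level. One gene (Uhrf1) was at least 2-fold higher in AE-F2 and 0 were at least 2-fold lower. Of all 13627 genes tested (those whose counts averaged 10 or more over the libraries), 3.16% were at least 2-fold higher and 0.653% at least 2-fold lower, and among those with a mean of 10 to under 100 counts, where Uhrf1 lies, 13.0% were at least 2-fold higher. The counting interval lay above equality for 3 members (Uhrf1, Mbd2 and Tdg), below it for 3 (Dnmt3a, Tet2 and Tet3), and included it for 3 (Dnmt1, Dnmt3b and Tet1). In all genes tested, 13.4% had an interval above and 13.4% below. The interval narrows with the count, so these shares are not matched for abundance. The median log2 ratio of the 9 was 0.05 against 0.00 in all genes tested, and their median absolute ratio was 0.17 against 0.12. Their counts summed to 7011 in control-F2 and 9119 in AE-F2, or 430 and 429 CPM.

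**Figure D1:**
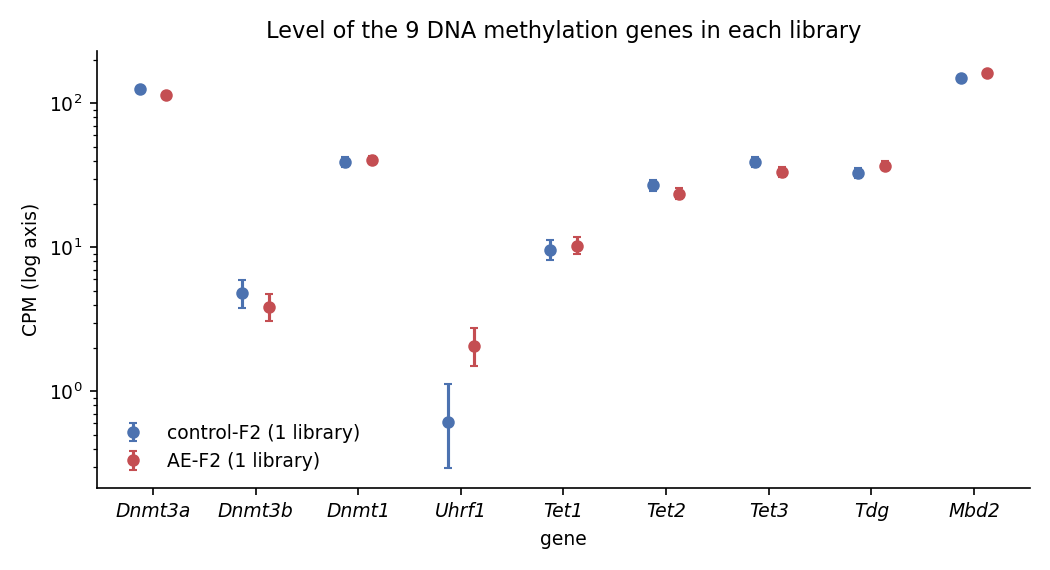
Level of the 9 genes in CPM (log axis) in the control-F2 library (blue) and the AE-F2 library (red), with 95% Poisson counting intervals and 1 library per group. Only the intervals of Uhrf1, at 0.614 and 2.07 CPM, are far apart, and the other genes differ little between the libraries.

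**Figure D2:**
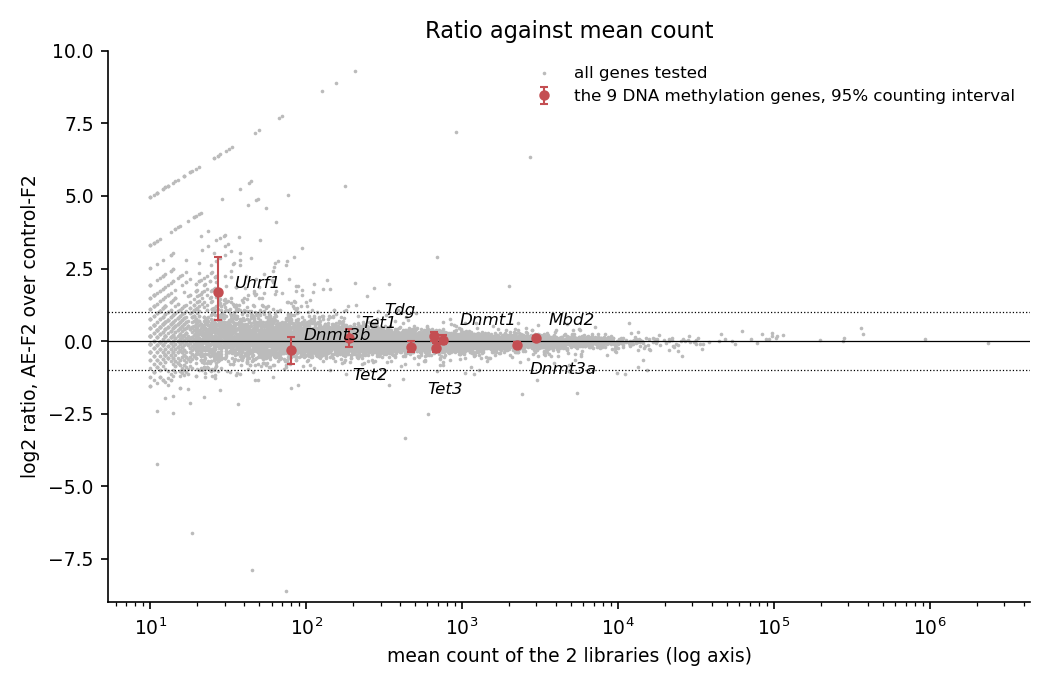
Log2 ratio, AE-F2 to control-F2, against the mean count of the libraries (log axis) for the 13600 tested genes that have a symbol (grey) and the 9 genes (red, with 95% counting intervals). Dotted lines mark a 2-fold difference, and ratios of genes at 0 in 1 library depend on the pseudocount. Uhrf1, at a mean of 27 counts, lies where the grey cloud is wide, and the other 8 lie between the dotted lines.

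Among the writers in the 9 genes (Dnmt1, Dnmt3a and Dnmt3b), Dnmt3a was the most abundant and Dnmt3b the scarcest. Dnmt3a, the de novo methyltransferase that persists in adult tissue, had 2047 counts in control-F2 and 2438 in AE-F2, or 126 and 115 CPM. Its log2 ratio was -0.13 (-0.22 to -0.04), a lower level in AE-F2 by 8.60%. Dnmt3b, the de novo enzyme that is prominent in the early embryo, had 78 and 82 counts (4.79 and 3.85 CPM) and a log2 ratio of -0.31 (-0.77 to 0.16). Its interval included equality, and at this depth a difference of that size could not be told from counting error. Dnmt3c, a rodent copy of Dnmt3b that acts in the male germ line, had 0 and 1 counts, and Dnmt3l, a catalytically inactive partner of the de novo enzymes, was at 0 in both, which allows up to 3 counts in each. Trdmt1, a relative that methylates tRNA, had 74 and 94 counts and a log2 ratio of -0.04 (-0.49 to 0.42).

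Of the counts of the 3 methyltransferases, Dnmt3a took 74.0% (Wilson 95% interval 72.4 to 75.6) in control-F2 and 72.1% (70.6 to 73.6) in AE-F2. Dnmt1 took 23.1% and 25.5%, a difference of 2.34 percentage points (0.18 to 4.48), and Dnmt3b took 2.82% and 2.42%. These are shares of reads, not of molecules, since the transcripts differ in length. Dnmt3a had 3.20 counts per Dnmt1 count in control-F2 and 2.83 in AE-F2, a ratio of ratios of 0.884 (0.784 to 0.997). The methyltransferases together had 2.24 and 2.36 counts per TET count, and the interval of that change (1.06, 0.963 to 1.16) included equality.

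**Figure D3:**
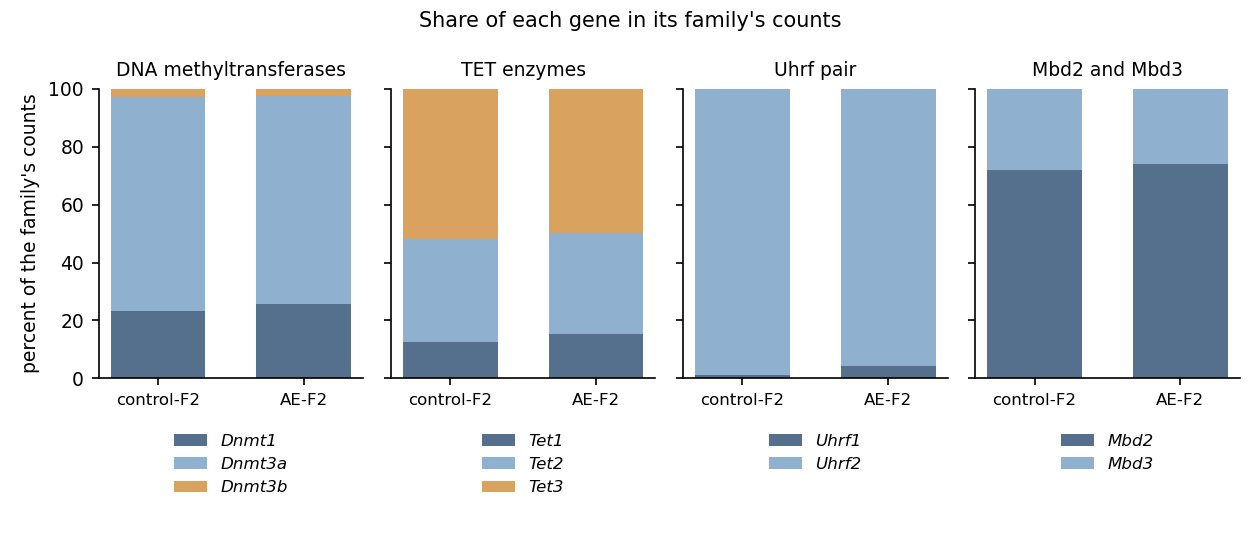
Percent of a family's counts that each gene took in control-F2 and AE-F2 (1 library each), for the methyltransferases, the TET enzymes, Uhrf1 with Uhrf2, and Mbd2 with Mbd3. The bars of a family differ by at most 3.18 percentage points between the libraries.

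In the maintenance machinery, Dnmt1 differed between the libraries by less than its counting error and Uhrf1 was higher in AE-F2. Dnmt1, the enzyme that copies methylation at replication, had 640 counts in control-F2 and 862 in AE-F2, or 39.3 and 40.5 CPM, with a log2 ratio of 0.05 (-0.10 to 0.20). Uhrf1, which reads hemimethylated CpG and brings Dnmt1 to it, had 10 and 44 counts, or 0.614 and 2.07 CPM. Its log2 ratio was 1.70 (0.74 to 2.91), a fold of 3.25 (1.67 to 7.53). The library AE-F2 was the higher one and the Poisson intervals of the levels did not overlap. Uhrf1 counts per Dnmt1 count were 0.0156 and 0.0510, a ratio of ratios of 3.27 (1.60 to 7.33). Its paralogue Uhrf2, which binds similar DNA, was far more abundant, at 834 and 965 counts with a log2 ratio of -0.17 (-0.31 to -0.04). Uhrf1 took 1.18% of the counts of the pair in control-F2 and 4.36% in AE-F2, a difference of 3.18 percentage points (1.70 to 4.72).

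Uhrf1 is a gene of cycling cells, and the markers of such cells moved with it. Of the 12 markers, 11 were tested, all 11 had ratios above 0, 8 had intervals above equality, 3 were at least 2-fold higher, and the median log2 ratio was 0.74. Dnmt1 and Pcna, which also act at replication, had log2 ratios of 0.05 and 0.07 with intervals that included equality. Mki67, a marker of all active phases of the cell cycle, had 92 and 278 counts (log2 ratio 1.21, 0.87 to 1.57), and Mcm2, part of the replicative helicase, had 183 and 341 (0.51, 0.25 to 0.78). Top2a, a topoisomerase of dividing cells, had 80 and 222 counts (1.08, 0.72 to 1.48). Uhrf1 counts per Mki67 count were 0.109 and 0.158, and the interval of that change (1.46, 0.686 to 3.38) included equality. Mki67 had the largest ratio of the cycling markers tested. Per count of the 12 markers together, Uhrf1 had 0.0145 and 0.0290 counts, a change of 2.004 (0.986 to 4.49) whose interval included equality, and per Mcm2 count the change was 2.36 (1.14 to 5.38), comparisons added after the values were seen. The B cell markers, whose counts ran from 0 to 178 in control-F2 and from 16 to 391 in AE-F2, stood beside it too, among them Ms4a1 (3 and 150 counts) and Cd79a (178 and 391 counts), as did the T cell and mesenchymal sums given above. The part of cycling, lymphoid or mesenchymal cells in the Uhrf1 value was not tested.

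Start regions were read because the letters before a start show which members hold E2F-like words. E2F is the factor family that switches on genes of S phase. The windows used here, from RefSeq (GRCm38.p6), were 13 of 300 bases, from 250 bases before to 50 after a start. They covered 8 of the 9 genes, and no window of Mbd2 was used. An E2F-like word (TTTCCCGC, TTTGGCGC, TTTCGCGC or TTTGCCGC, either strand) stood in 2 of the 13 windows (15.4%), 1 of Uhrf1 and 1 of Dnmt1, and in 2.26% of all 32851 windows. Of the 6 windows of the maintenance partners, 2 held one (33.3%), those of Hells and Cdca7. The share was 20% for windows of the cycling markers and 12.5% for those of the germline genes given below. In each of the other lists of DNA methylation genes it was 0%. A match is a description of the letters, not a site that is used, and each of these words contains CpG, of which the members' windows hold more than most. The word TTTCGCGC began 185 bases before 1 of the 2 Uhrf1 starts and overlapped none of the other words searched, and the window of the other Uhrf1 start held no E2F-like word. It is in capitals in the 250 bases before that start (chr17:56304063-56304312, plus strand, 30 CpG in the stretch, outside exons of GENCODE M21).
Uhrf1: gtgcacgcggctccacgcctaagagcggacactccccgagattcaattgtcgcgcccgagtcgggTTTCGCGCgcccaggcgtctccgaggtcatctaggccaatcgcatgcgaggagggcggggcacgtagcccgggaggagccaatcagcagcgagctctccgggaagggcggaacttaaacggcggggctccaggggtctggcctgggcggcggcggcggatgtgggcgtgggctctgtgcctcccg

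Of the partners of maintenance methylation, 6 genes were listed and tested, with a median log2 ratio of 0.16, and 2 were at least 2-fold higher in AE-F2, both with a mean under 100 counts, where 13.0% of genes were. Hells, a chromatin remodeller needed for methylation of packed DNA, had 18 and 61 counts and a log2 ratio of 1.35 (0.60 to 2.23). Hells counts per Mki67 count were 0.196 and 0.219, and the interval of that change (1.12, 0.615 to 2.12) included equality, as did that per count of the 12 cycling markers together (1.54, 0.892 to 2.80), also added after the values were seen. Cdca7l, a relative of the Hells activator Cdca7, had 2 and 20 counts, and its log2 ratio of 2.65 (0.90 to 6.08) rests on so few that its size is open across that interval. Cdca7 itself had 13 and 19 counts (0.15, -0.93 to 1.31). The abundant partners differed less. Usp7, the deubiquitinase that binds Uhrf1 and Dnmt1, had 1809 and 2641 counts (0.16, 0.08 to 0.25), and Pcna, the replication clamp that holds Dnmt1, had 544 and 745 (0.07, -0.09 to 0.23).

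**Figure D4:**
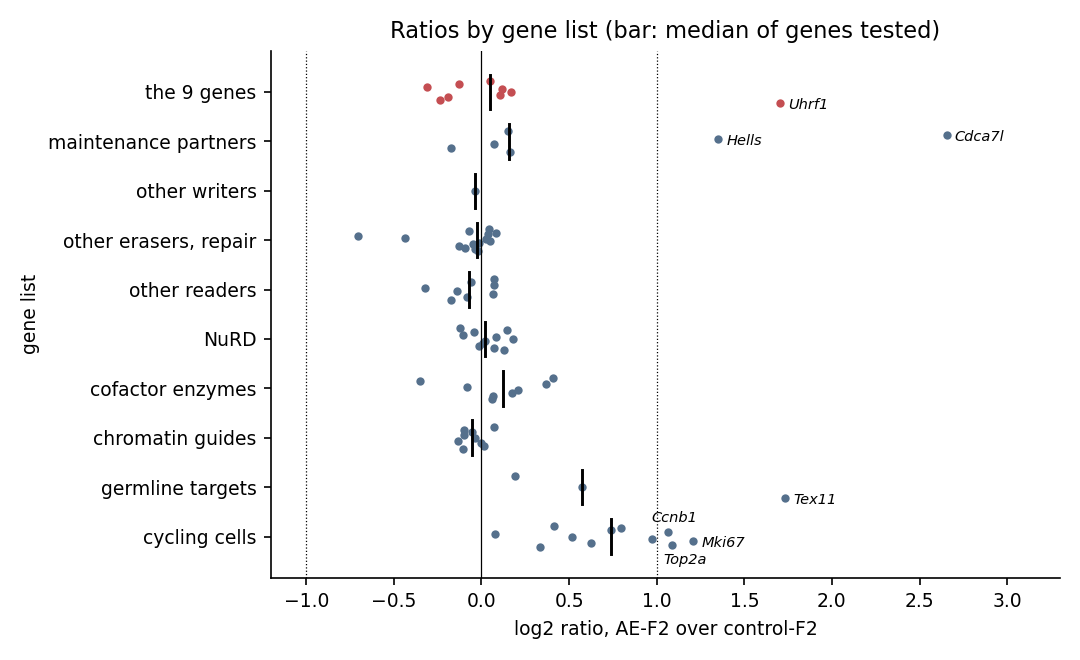
Log2 ratio, AE-F2 to control-F2, of each gene tested (points) in the 9 genes, the 7 lists of further DNA methylation genes, the germline targets and the markers of cycling cells, with the median of each list as a bar and dotted lines at a 2-fold difference. Uhrf1, Hells and Cdca7l are the DNA methylation genes past 2-fold, and the median of the cycling markers is 0.74.

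Of the TET erasers, Tet2 and Tet3 had intervals below equality, that of Tet2 by the narrowest margin. Tet1 had 156 counts in control-F2 and 219 in AE-F2, or 9.58 and 10.3 CPM, with a log2 ratio of 0.11 (-0.20 to 0.41). Tet2, the TET enzyme without the CXXC DNA-binding domain that the other two carry, had 439 and 502 counts, or 27.0 and 23.6 CPM, with a log2 ratio of -0.19 (-0.38 to -0.0003). Tet3 had 642 and 711 counts, or 39.4 and 33.4 CPM, with a log2 ratio of -0.23 (-0.39 to -0.08). Tet3 was thus lower in AE-F2 by 15.0% and Tet2 by 12.3%, while the interval of Tet1 included equality. With AE-F2 thinned to the control-F2 total, the interval of Tet3 still lay below equality, ending at -0.0005, and that of Tet2 included it. Tet3 took 51.9% of the TET counts in control-F2 and 49.7% in AE-F2, Tet2 took 35.5% and 35.1%, and Tet1 took 12.6% and 15.3%, the last a difference of 2.68 percentage points (0.04 to 5.30). Tet1 counts per Tet3 count were 0.243 and 0.308, and the interval of that change (1.27, 0.999 to 1.61) reached equality.

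Tdg, the glycosylase that removes the oxidised bases the TET enzymes make, had 536 and 785 counts, or 32.9 and 36.9 CPM. Its log2 ratio was 0.17 (0.01 to 0.33), and AE-F2 was the higher library. Its count per TET count was 0.433 in control-F2 and 0.548 in AE-F2, a ratio of ratios of 1.27 (1.10 to 1.45). Tdg was the only member whose estimated count was not whole in a library, 535.99 in control-F2.

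Of 15 other genes of demethylation and base excision repair, 14 were tested, 0 were past 2-fold, 3 had intervals below equality and 0 above, and the median log2 ratio was -0.03. Among the 4 most abundant were Cxxc5 (1572 and 2166 counts, 0.08, -0.01 to 0.18) and Cxxc4 (1508 and 1867, -0.07, -0.17 to 0.03), both CXXC proteins that bind unmethylated CpG. Ogt, the glycosyltransferase that pairs with TET enzymes, had 1551 and 1850 counts (-0.13, -0.23 to -0.03), and Parp1, which senses DNA breaks in repair, had 1342 and 1639 (-0.09, -0.20 to 0.01). The lowest ratios of the list belonged to Gadd45b (643 and 515 counts, -0.70, -0.87 to -0.53) and Gadd45g (981 and 946 counts, -0.43, -0.56 to -0.30), stress-induced genes linked to demethylation, which were singled out after their values were seen. Gadd45a, of the same family, had 107 and 143 counts (0.03, -0.34 to 0.41). Immediate early genes moved beside Gadd45b and Gadd45g. Those 8 genes, a list added after their values were seen, summed to 4071 CPM in control-F2 and 2112 CPM in AE-F2, and all 8 had intervals below equality. Their part in the Gadd45b and Gadd45g values was not tested.

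The reader Mbd2 was the most abundant of the 9 genes in counts. It had 2463 counts in control-F2 and 3476 in AE-F2, or 151 and 163 CPM, with a log2 ratio of 0.12 (0.04 to 0.19). Mbd3, its close relative and its alternative in NuRD, which does not bind methylated CpG well, had 966 and 1209 counts (-0.06, -0.18 to 0.07). Mbd2 took 71.8% of the counts of the pair in control-F2 and 74.2% in AE-F2, a difference of 2.37 percentage points (0.41 to 4.33).

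Of 9 other MBD-family and methyl-CpG binding proteins, 8 were tested, 5 had intervals that included equality, 0 were past 2-fold, 3 had intervals below equality and 0 above, and the median log2 ratio was -0.07. Mbd6, an MBD-family member of the Polycomb deubiquitinase complex, had 2425 and 2523 counts (-0.32, -0.41 to -0.24). Zbtb4, a zinc finger protein that binds methylated CpG, had 1941 and 2239 counts (-0.18, -0.26 to -0.09). Of the 11 NuRD genes, all were tested, 3 had intervals above equality and 1 below, and the median was 0.02. Its helicases went opposite ways, Chd4 with 5291 and 7631 counts (0.15, 0.10 to 0.20) and Chd3 with 3730 and 4458 (-0.12, -0.19 to -0.06). The histone-binding subunits Rbbp7 (2146 and 3052 counts, 0.13, 0.05 to 0.21) and Rbbp4 (2210 and 3024, 0.07, -0.01 to 0.15) were the next most abundant.

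Of 8 genes that make or clear the methyl donor or the TET cosubstrate, 3 had intervals above equality, 1 below and 0 were past 2-fold, with a median of 0.12. Ahcy, which clears the methyltransferase inhibitor S-adenosylhomocysteine, had 1242 and 2148 counts (0.41, 0.31 to 0.51). Idh2, which makes 2-oxoglutarate in mitochondria, had 1890 and 2329 counts (-0.08, -0.17 to 0.01), and Idh3a, of the NAD-linked enzyme, had 868 and 1306 (0.21, 0.08 to 0.33). Mat2b, a regulatory subunit of the enzyme that makes S-adenosylmethionine, had 745 and 1011 counts (0.06, -0.08 to 0.20). Of 9 chromatin proteins that guide or block DNA methylation, 0 were past 2-fold, 3 had intervals below equality and 0 above, with a median of -0.05. The abundant ones were Ehmt2, an H3K9 methyltransferase (2714 and 3306 counts, -0.10, -0.17 to -0.02), Nsd1, an H3K36 methyltransferase whose mark attracts Dnmt3a (2271 and 2700, -0.13, -0.21 to -0.05), Trim28, a co-repressor (1890 and 2285, -0.11, -0.20 to -0.02), and Setd2, which trimethylates H3K36 (1396 and 1836, 0.01, -0.09 to 0.12). Over the 7 lists together, 57 of 61 genes were tested, 2 were at least 2-fold higher and 0 lower, 9 had intervals above equality and 12 below, and the median was 0.00. The 2-fold count is 3.51% of those tested, near the 3.16% of all genes, and the intervals make 15.8% above and 21.1% below, against 13.4% each in all genes.

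Levels between genes were compared per length of the longest coding transcript. In CPM per kilobase, Mbd2 was highest, at 77.4 in control-F2 and 83.6 in AE-F2, above 96.1% and 96.5% of genes tested. Then came Dnmt3a (13.0 and 11.8), Tdg (9.40 and 10.5), Dnmt1 (6.69 and 6.90), Tet3 (3.62 and 3.06), Tet2 (2.94 and 2.57), Dnmt3b (1.11 and 0.892), Tet1 (0.667 and 0.716) and Uhrf1 (0.171 and 0.577). The order was the same in both libraries. Neighbours in it had overlapping counting intervals in AE-F2 for Dnmt3b with Tet1 and for Tet1 with Uhrf1, and for no pair in control-F2. Uhrf1 lay above 3.15% of genes tested in control-F2 and 9.63% in AE-F2. Genes whose counts averaged under 10 were left out of these shares. The order rests on the transcript taken. With the median transcript length, 7 of the 9 places changed in each library, Tet1 went from place 8 to place 4, Dnmt3a was first and Mbd2 second, and Tdg and Uhrf1 kept theirs.

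The members' starts also differed in CpG content, the substrate of these enzymes. The median window of the 8 genes with a window held 26 CpG (range 2 to 57), against 7 in all windows. The Sp1 word GGGCGG, on either strand, stood in 10 of 13 (76.9%, against 35.7% of all windows). Across the other lists the median CpG ran from 5 (other writers) to 36 (chromatin guides). Their shares of windows with the Sp1 word ran from 50% (other writers) to 100% (NuRD and cofactor genes). The NRF1 word GCGCATGC stood in 2 of 13 windows (15.4% against 2.71%), both of Dnmt1 and both with the word after the start (0% of the members' windows held it before the start, against 2.26% of all windows). The cAMP-response word TGACGTCA stood in 1 of 13 (7.69% against 1.79%), that of Tdg. The Tet2 window and 1 of the 3 Dnmt1 windows mark the ends of the range, and the Dnmt1 windows held 2, 12 and 33 CpG. Dnmt3a, the most abundant writer, had 3 windows with 46, 47 and 18 CpG, of which the first is shown. The 250 bases before each start are given with every CpG in capitals, from chr3:133544391-133544640 (minus strand, 51 CpG), chr12:3806730-3806979 (plus strand, 38 CpG) and chr9:20959889-20960138 (minus strand, 2 CpG, 1 of the 3 Dnmt1 starts), GRCm38.p6, RefSeq, all outside exons of GENCODE M21.
Tet2: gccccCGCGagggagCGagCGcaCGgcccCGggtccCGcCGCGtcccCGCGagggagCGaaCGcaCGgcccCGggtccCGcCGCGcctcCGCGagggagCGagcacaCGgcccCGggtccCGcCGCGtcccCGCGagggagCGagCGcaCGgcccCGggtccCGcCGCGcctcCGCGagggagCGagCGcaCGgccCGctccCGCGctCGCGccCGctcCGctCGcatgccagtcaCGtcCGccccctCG
Dnmt3a: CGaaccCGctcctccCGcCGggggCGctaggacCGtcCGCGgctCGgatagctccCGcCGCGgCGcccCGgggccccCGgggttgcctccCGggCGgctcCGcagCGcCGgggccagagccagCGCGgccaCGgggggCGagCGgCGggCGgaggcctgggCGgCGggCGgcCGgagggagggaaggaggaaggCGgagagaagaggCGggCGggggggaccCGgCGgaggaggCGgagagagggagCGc
Dnmt1: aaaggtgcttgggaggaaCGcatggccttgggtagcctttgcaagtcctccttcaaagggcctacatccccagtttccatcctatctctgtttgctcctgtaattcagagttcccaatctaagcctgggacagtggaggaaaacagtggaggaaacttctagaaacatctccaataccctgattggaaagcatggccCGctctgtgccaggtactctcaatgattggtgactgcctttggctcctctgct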

How the data were processed

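Islet mRNA was enriched with oligo(dT) and sequenced on an Illumina instrument from a kit that does not mark strand, so reads of overlapping antisense genes cannot be told apart. The authors deposited estimated counts (expected counts, unit of both files) per Ensembl gene, of which 8.56% (control-F2) and 9.28% (AE-F2) were not whole numbers. The submitters' processing notes name Bowtie2, RSEM and DESeq2 without versions, whereas the study's methods name HISAT2. The genome build and annotation are not given in the sources used here. Counts were rounded, 21806 of the 21899 IDs were matched to symbols and transcript lengths of GENCODE M21, and counts were scaled by TMM (edgeR 4.0.16, R 4.3.3). A gene was tested where its counts averaged 10 or more over both libraries (13627 genes). A pseudocount of 0.5 was added for the ratio of a gene or a sum, which was given a Clopper-Pearson interval (scipy 1.17.1) at 95% without the pseudocount. Ratios of ratios were given exact conditional 95% intervals from unscaled counts without a pseudocount. Differences in percentage points were given intervals that combine the Wilson limits of both shares. CPM is the count scaled to a library total of 1000000. Because only 1 library per group was at hand, no p-value was computed, and the tests designed for replicates were not run. The ratio procedure was tested on simulated data. Named genes were all 9 members, the up to 4 most abundant of each other DNA methylation list with any past 2-fold, and of the cell type and cycling lists the most abundant pair with any standing beside a member. Cdca7, Gadd45a and the germline genes near 0 were named after their values were seen. One gene that the rule names is not reported here. The members and lists were chosen with earlier results of these data known. Alternatives were other scalings (total counts, DESeq2 1.42.0 size factors, upper quartile, totals without mitochondrial and insulin genes), a pseudocount of 5, unrounded counts, removal of GC and length trends, thinning of AE-F2, minimum means of 1, 50 and 100, a 1.5-fold threshold and other transcript lengths.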

Additional observations from a re-analysis of the deposited data

How the results depend on the processing

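Under 8 changed settings (4 scalings, pseudocount 5, unrounded counts, GC and length trends removed, AE-F2 thinned) the 9 ratios kept their sign. The log2 ratio of Uhrf1 ran from 1.33 to 1.88, Dnmt3a from -0.16 to -0.09, Tet3 from -0.24 to -0.17 and Mbd2 from 0.10 to 0.15, with the interval on the same side of equality in all 8. The interval of Tet2 included equality under 4 settings and that of Tdg under 1. The intervals rest on rounded counts without a pseudocount, so the pseudocount of 5 and the unrounded counts could not move them. The scalings moved the median of all genes by at most 0.02. With a minimum mean of 50 counts, or of 100, 0 members and 0 further DNA methylation genes were at least 2-fold higher, because Uhrf1, Hells and Cdca7l were no longer tested. Over all genes, the numbers at least 2-fold higher and lower were 1198 and 441 with a minimum mean of 1, 82 and 22 with 50, and 30 and 18 with 100. At a 1.5-fold threshold they were 823 and 299. No paired analysis was possible because the 2 libraries at hand carry different replicate numbers, and with 1 library per group no replicate could be left out. The spread between animals is unknown, so none of the differences can be set against it, and depth limits the genes of low count, among them Uhrf1, Hells, Dnmt3b, Cdca7 and Cdca7l, whose intervals are wide.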

Other observations

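Germline genes whose promoters are kept silent by methylation in somatic tissue mostly had few counts. Of 16 such genes, 7 had 0 counts in both libraries, 11 had at most 3 counts in each, and 3 passed the filter. Together they had 91 counts in control-F2 and 162 in AE-F2, or 5.59 and 7.61 CPM, a fold of 1.36 (1.05 to 1.79), and without Tex11, left out after its values were seen, 84 and 130 counts, a fold of 1.19 (0.896 to 1.58) whose interval includes equality. Brdt, a bromodomain gene of spermatids, had 61 and 91 counts (log2 ratio 0.19, -0.29 to 0.69), and Dazl, an RNA-binding protein of germ cells, had 8 and 16 (0.58, -0.69 to 2.05). Tex11, an X-linked meiotic gene, had 7 and 32 counts, a log2 ratio of 1.73 (0.61 to 3.24), past 2-fold. Ddx4, the germ cell helicase, had 0 and 2 counts, and Mael, Asz1 and Tex101 had 0 in both.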
